A study of Bos taurus with 12 samples.

Results

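The genes examined here sense sterols, take them up and store them as esters. They are INSIG1, INSIG2, SREBF1, SREBF2, SCARB1 and SOAT1, and they were read through all 12 probe sets of the array that name 1 of these 6 genes and no other, of 24016 probe sets in all. A probe set is a group of short DNA probes that together read out 1 transcript. INSIG1 and SOAT1 had 1 probe set each, SCARB1 had 1, SREBF2 had 2, INSIG2 had 3 and SREBF1 had 4. Where a gene has several, they are told apart by letters (INSIG2 A to C, SREBF1 A to D, SREBF2 A and B), and the plots give the array's own name for each.

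Expression was measured in papillae from the ventral sac of the rumen, the fermentation chamber of the cow's forestomach. The same 4 Holstein dairy cows gave papillae at week 0, on high forage, and in weeks 1 and 3 of a grain challenge, with 1 array per cow and week. No treatment other than diet and no age is given for the cows, and with no group that stayed on forage, diet and calendar week cannot be told apart. The values are on a log2 scale and were centred by the authors, so that each probe set has its middle value over the 12 arrays at 0. They show differences between arrays and give no level of expression.

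As background, the transcription factors SREBP1 and SREBP2, encoded by SREBF1 and SREBF2, are made as precursors anchored in the membrane of the endoplasmic reticulum. When sterols are plentiful, the INSIG proteins hold the escort protein SCAP and its SREBP cargo there. When sterols are scarce, SCAP carries the precursor to the Golgi, where the proteases MBTPS1 and MBTPS2 free a fragment that enters the nucleus and turns on genes of cholesterol synthesis (mainly SREBP2) and fatty acid synthesis (mainly SREBP1). INSIG1 is itself a target of the SREBPs, while INSIG2 is less dependent on them. SCARB1 is a cell surface receptor that takes cholesteryl esters from high density lipoprotein, and SOAT1 joins cholesterol to a fatty acid for storage in lipid droplets. The rumen epithelium absorbs the short-chain fatty acids of fermentation, among them acetate, a building block of sterols. Messenger RNA, as measured here, does not show how much SREBP is cleaved.

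Hybridization controls (18 probe sets) stood apart on 3 arrays, with means of 0.492 and 0.480 for cow 1 at weeks 0 and 1 and of 0.719 for cow 2 at week 0, while the remaining 9 lay between -0.325 and 0.0546. Where leaving out these 3 arrays moved a log2 difference or the median of a list by over 1.5 times and by at least 0.05, the value without them is given too. With no level in the values, the tissue could not be checked against its markers. In a bulk sample, fewer cells of a type and less RNA per cell cannot be told apart.

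Of the 12 probe sets, 9 varied between arrays and 3 hardly did. The single SCARB1 probe set ranged over 0.0842 on the log2 scale across all 12 arrays. SREBF2 B ranged over 0.0858 and SREBF1 D over 0.123. All 3 followed the median of all probe sets on each array, with a Pearson correlation of 0.98, 0.98 and 0.96 over the 12 arrays, which come from 4 cows. A range under 0.15, a limit chosen after the values were seen, was found in 4213 of all probe sets, or 17.5%, and their median correlation with the array median was 0.98 against 0.16 for all others. The next narrowest of the 12 was an INSIG2 probe set with a range of 0.42. The values of these 3 probe sets therefore follow the array as a whole, and whether their transcripts lay below what the array detects was not tested.

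**Figure D1:**
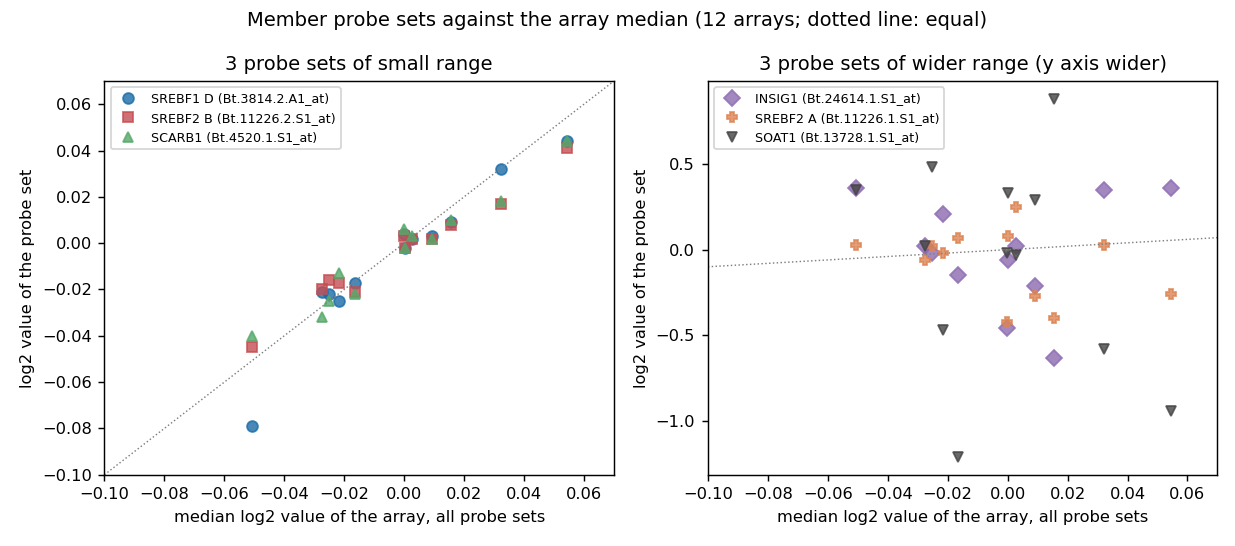
Log2 values of 6 probe sets (y axis) against the median log2 value of all probe sets on the same array (x axis), 1 point per array. The 3 probe sets on the left stay between -0.08 and 0.04 and lie near the dotted line of equal values, while INSIG1, SREBF2 and SOAT1 on the right spread far beyond it.

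INSIG1 was the only one of the 12 probe sets with weeks that did not overlap, higher in week 1 and lower in week 3 than on forage in every cow, though no difference passed the test across all probe sets. INSIG1 was at 0.21, -0.15, -0.06 and 0.02 in cows 1 to 4 at week 0, at 0.36, 0.36, 0.02 and 0.35 at week 1 and at -0.21, -0.46, -0.63 and -0.02 at week 3. Cows 1, 2 and 4 were nearly level in week 1 and cow 3 was below them, and cow 3 also had the lowest value of week 3. The weekly means were 0.01 ± 0.15, 0.28 ± 0.17 and -0.33 ± 0.27 (SD, n = 4).

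Between weeks 1 and 3, INSIG1 differed by -0.61 ± 0.13 (log2 difference ± SE), a 1.52-fold lower value in week 3, with a 95% interval of -0.90 to -0.31. The difference was -0.58, -0.82, -0.65 and -0.38 in cows 1 to 4. The weeks did not overlap, since the highest value of week 3, -0.02, lay below the lowest of week 1, 0.02. Of all probe sets, 1.38% separated the same way. With limma, a linear model fitted to every probe set, the unadjusted p was 0.00100 and the Benjamini-Hochberg adjusted p 0.548. With the cow as a block in limma, the SE was 0.09, the unadjusted p 0.000211 and the adjusted p 0.159. Against week 0, INSIG1 was 0.27 ± 0.13 higher in week 1 (limma, adjusted p = 0.763) and at -0.34 ± 0.13 in week 3 (adjusted p = 0.901). In the limma fit with the block, the SE was 0.09 in each. Its unadjusted p was 0.0204 for week 1 and 0.00697 for week 3, and its adjusted p 0.513 and 0.512. The cow differences were 0.16, 0.51, 0.08 and 0.33 in week 1, and -0.42, -0.31, -0.57 and -0.05 in week 3, so both comparisons had a common direction in all 4 cows while their weeks overlapped.

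INSIG2, the second retention protein, differed less than INSIG1 in both comparisons with week 3. In week 1 against week 0, INSIG2 A was close to INSIG1, at 0.26 against 0.27. INSIG2 also had another order of the weeks, with its lowest mean at week 0 on each of its 3 probe sets. INSIG2 A was at -0.05, -0.28, -0.16 and -0.09 in cows 1 to 4 at week 0, at 0.05, 0.29, 0.23 and -0.12 at week 1 and at 0.07, 0.07, 0.05 and -0.07 at week 3. Cows 1 to 3 lay above their own week 0 value in week 1, and cow 4 did not. INSIG2 B was at -0.01, -0.30, -0.05 and -0.01 at week 0, at 0.09, 0.14, 0.11 and -0.06 at week 1 and at 0.15, 0.01, -0.17 and 0.01 at week 3. INSIG2 C was at -0.23, -0.03, -0.28 and 0.00 at week 0, at 0.01, 0.02, 0.00 and -0.19 at week 1 and at 0.02, 0.14, -0.11 and 0.06 at week 3. In all 3 probe sets the weeks overlapped, and cow 4 was the animal that was lower in week 1 than in week 0.

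In week 1 against week 0 these INSIG2 probe sets differed by 0.26 ± 0.09, 0.16 ± 0.08 and 0.10 ± 0.08, in the order just given (limma, adjusted p = 0.763 for each). Leaving out 1 array or cow gave 0.16 to 0.35, 0.07 to 0.24 and 0.03 to 0.19, and INSIG2 B was at 0.09 without the 3 arrays of high controls. In week 3 against week 0 they differed by 0.18 ± 0.09, 0.09 ± 0.08 and 0.16 ± 0.08 (adjusted p = 0.901 for each), and INSIG2 A and INSIG2 C were higher in all 4 cows. INSIG2 B was at 0.03 without the 3 arrays. Between weeks 1 and 3 the differences of -0.08 ± 0.09, -0.07 ± 0.08 and 0.07 ± 0.08 did not share a sign. The probe sets of INSIG2 also went together only in part, with correlations over the 12 arrays of 0.74 between INSIG2 A and INSIG2 B, 0.41 between INSIG2 A and C and 0.33 for the remaining pair. These arrays share cows and weeks, so the correlations describe them and carry no test.

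**Figure D2:**
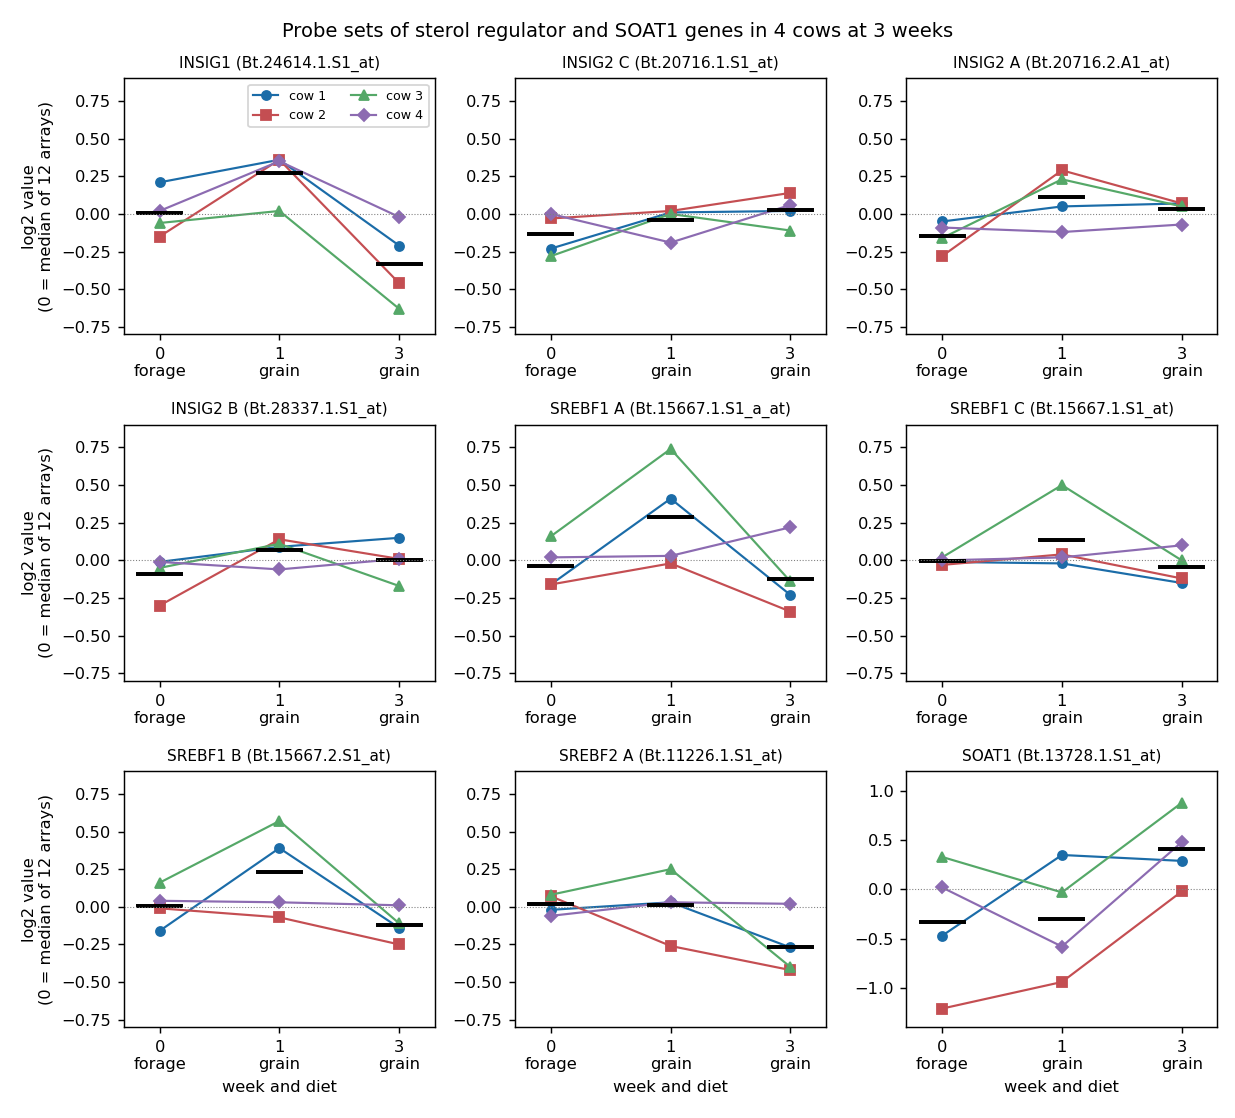
Log2 values of the 9 probe sets that varied (y axis, 0 is the median of the 12 arrays) by week and diet (x axis), 1 line per cow and a black bar for the mean of the 4 cows. INSIG1 goes up to 0.28 on average in week 1 and down to -0.33 in week 3 in each cow, SREBF1 A and B peak in week 1 in cows 1 and 3, and SOAT1, drawn on a wider axis, has its highest mean, 0.41, in week 3.

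SREBF1, the source of the fatty acid regulator SREBP1, was highest in week 1 in cows 1 and 3 on its probe sets A and B. On these, cows 2 and 4 differed less between weeks 0 and 1 than cows 1 and 3 did. SREBF1 A was at -0.16, -0.16, 0.16 and 0.02 in cows 1 to 4 at week 0, at 0.41, -0.02, 0.74 and 0.03 at week 1 and at -0.23, -0.34, -0.14 and 0.22 at week 3. SREBF1 B was at -0.16, -0.01, 0.16 and 0.04 at week 0, at 0.39, -0.07, 0.57 and 0.03 at week 1 and at -0.14, -0.25, -0.11 and 0.01 at week 3. On both, cows 1 and 3 stood above the other cows in week 1 alone, and cow 4 did not come down in week 3 as they did. SREBF1 C was at -0.01, -0.03, 0.02 and 0.00 at week 0, at -0.02, 0.04, 0.50 and 0.02 at week 1 and at -0.15, -0.12, 0.00 and 0.10 at week 3, so that cow 3 in week 1 was the one array that stood apart.

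The weekly differences of SREBF1 A were 0.32 ± 0.17 for week 1 against week 0, -0.09 ± 0.17 for week 3 against week 0 and -0.41 ± 0.17 for week 3 against week 1 (limma, adjusted p = 0.763, 0.901 and 0.999). Without the week 1 array of cow 3 the first was 0.17 and the last -0.26, and without the 3 arrays of high controls the first was 0.16 and the second -0.21. For SREBF1 B the difference between weeks 3 and 1 was -0.35 ± 0.13, lower in all 4 cows (-0.53, -0.18, -0.68 and -0.02; unadjusted p = 0.0236, adjusted p = 0.908). For SREBF1 C it was -0.18 ± 0.10, and -0.06 without the week 1 array of cow 3. SREBF1 A and SREBF1 C list the same target transcript in the array annotation and correlated at 0.84 over the 12 arrays, and SREBF1 A and SREBF1 B at 0.96, so the 3 are readings of 1 gene on the same arrays and not replicates.

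SREBF2, the source of the cholesterol regulator SREBP2, was at similar means in weeks 0 and 1 and lower in week 3 in cows 1 to 3. Its varying probe set, SREBF2 A, was at -0.02, 0.07, 0.08 and -0.06 in cows 1 to 4 at week 0, at 0.03, -0.26, 0.25 and 0.03 at week 1 and at -0.27, -0.42, -0.40 and 0.02 at week 3. Cow 4 was nearly level over the 3 weeks, and it made weeks 0 and 3 overlap. Week 3 differed from week 0 by -0.28 ± 0.12, with -0.25, -0.49, -0.47 and 0.08 in the cows, and from week 1 by -0.28 ± 0.12, lower in all 4 cows by 0.30, 0.16, 0.65 and 0.01. Both had a limma unadjusted p under 0.05 (0.0344 and 0.0358) and adjusted p of 0.901 and 0.987. Week 1 against week 0 gave -0.00282 ± 0.12 with a 95% interval of -0.26 to 0.25, and the cows split into 3 that were higher and cow 2, which was lower by 0.33.

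SCARB1, the receptor for high density lipoprotein, gave a reading only through the narrow probe set described above. Relative to the median of its array, it stayed between -0.014 and 0.010 in all 12 arrays. Its weekly differences were 0.02 ± 0.02, 0.02 ± 0.02 and -0.01 ± 0.02 for week 1 against week 0, week 3 against week 0 and week 3 against week 1 (limma, adjusted p = 0.763, 0.901 and 0.999). The 95% intervals reached from -0.06 to 0.08 at the widest, on the scale of a probe set that moved with the array, so they do not bound a change of the transcript itself.

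SOAT1, the enzyme that esterifies cholesterol, was the most variable of the 12 probe sets, and its highest mean was in week 3. SOAT1 was at -0.47, -1.21, 0.33 and 0.02 in cows 1 to 4 at week 0, at 0.35, -0.94, -0.03 and -0.58 at week 1 and at 0.29, -0.02, 0.88 and 0.48 at week 3. Cow 2 had the lowest value of every week and cow 3 the highest of weeks 0 and 3. The SD over the 12 arrays, 0.615, was at percentile 97.7 of all probe sets. Differences between cows took up 47.7% of its variance and differences between weeks 33.6%, while the medians over all probe sets with a range of at least 0.15 were 28.1% and 12.8%. Any grouping takes up some share by chance.

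In week 3 SOAT1 was 0.74 ± 0.37 above week 0, with 0.76, 1.19, 0.55 and 0.45 in cows 1 to 4 and a 95% interval of -0.07 to 1.55 (limma, unadjusted p = 0.0693, adjusted p = 0.901). The cows agreed in sign while the weeks overlapped, because the cows started from levels that lay far apart. With the cow as a block the SE was 0.23 and the adjusted p 0.601. Both week 0 arrays with high hybridization controls held the lowest SOAT1 values of that week. Without the 3 arrays of high controls the difference was 0.23, without the week 0 array of cow 2 it was 0.45, and their part in the result was not tested. Week 3 was 0.71 ± 0.37 above week 1 (adjusted p = 0.999), higher by 0.92, 0.91 and 1.05 in cows 2 to 4 and at -0.06 in cow 1, and 0.92 without the 3 arrays. Week 1 against week 0 had no common direction, at 0.82, 0.27, -0.36 and -0.60 in the cows. Its mean of 0.03 ± 0.37 turned to -0.01 or -0.18 without the week 0 or week 1 array of cow 1, to -0.26 without week 0 of cow 2, to -0.06 without week 1 of cow 3 and to -0.69 without the 3 arrays.

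**Figure D3:**
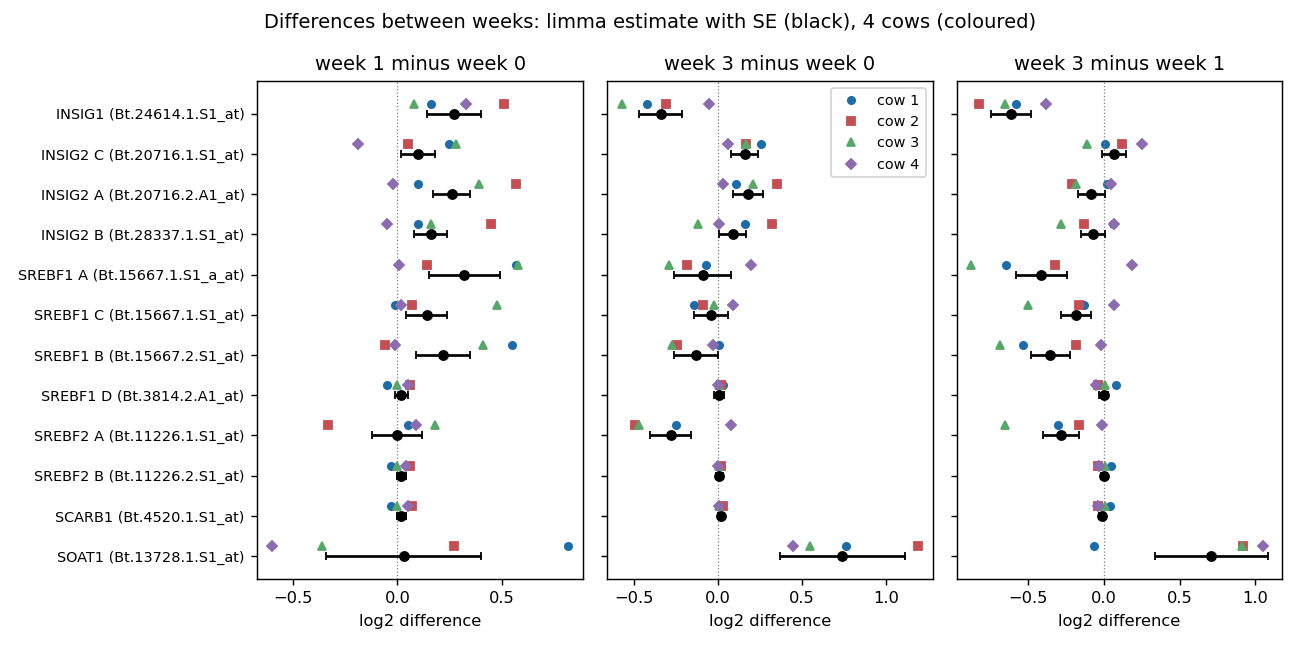
Log2 differences between weeks (x axis) for the 12 probe sets (y axis), as the limma estimate with its SE (black) and as the difference in each of the 4 cows (coloured). INSIG1 is above 0 in week 1 and below 0 in week 3 in every cow, and the probe sets of SCARB1, SREBF2 B and SREBF1 D stay within 0.08 of 0.

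None of the 12 probe sets was called at an adjusted p under 0.05 in any comparison or in the F test over the 3 weeks, and neither was any other of the 24016 (0%). At an unadjusted p under 0.05, limma gave 1 of the 12 higher and none lower in week 1 against week 0, where 3.28% of all probe sets were higher and 1.87% lower. The one was INSIG2 A. With the cow as a block there were 2, INSIG1 being the other, against 4.39% of all. In week 3 against week 0 none was higher and 2 were lower, INSIG1 and SREBF2 A, against 2.52% and 1.36% of all. With the cow as a block SOAT1 was higher (unadjusted p = 0.0122), as were 3.93% of all. In week 3 against week 1 none was higher and 4 were lower, against 2.47% and 2.41% of all. These were INSIG1, SREBF1 A, SREBF1 B and SREBF2 A, so the 4 probe sets stand for 3 genes. With the block SOAT1 was higher here too (unadjusted p = 0.0152), as were 4.18% of all. The counts rest on single arrays: leaving out 1 array or 1 cow gave 0 to 3, 0 to 4 and 1 to 5 for the 3 comparisons. In the F test, INSIG1 had an unadjusted p of 0.00346 and INSIG2 A one of 0.0353, 2 of the 12 against 5.01% of all, and adjusted p-values of 0.638 and 0.939.

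Agreement between cows needs the background as well. In week 3 against week 0, 5 of the 12 probe sets were higher in all 4 cows, but so were 36.3% of all probe sets. SOAT1 and 2 of INSIG2 were among the 5, and the other two were the narrow probe sets SCARB1 and SREBF2 B. INSIG1 was lower in all 4 cows, as were 4.63% of all. In week 1 against week 0, INSIG1 and SREBF1 A were higher in all 4 cows, against 6.91% of all. In week 3 against week 1, INSIG1, SREBF1 B and SREBF2 A were lower in all 4 cows, against 4.59% of all. No share over all probe sets is given here for lower in all 4 cows in week 1 against week 0. The same holds for higher in all 4 cows in week 3 against week 1. Agreement of listed genes in these directions, reported below, therefore has no background beside it.

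Genes that work beside the 6 were followed as lists, chosen with earlier results of these data known, and no gene of any list was called at an adjusted p under 0.05. Over all 9155 named genes the median difference was 0.02, 0.02 and -0.01 for week 1 against week 0, week 3 against week 0 and week 3 against week 1. At an unadjusted p under 0.05, 3.76%, 3.13% and 3.68% of them were higher and 2.85%, 1.89% and 3.16% lower. Whatever the p, 63.3%, 64.5% and 40.8% of them were higher, which is the background for the counts by sign that follow.

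The machinery that cleaves SREBPs and degrades INSIG1 had 9 of 12 genes measured, with medians of 0.00, 0.08 and -0.02 in the same order (0.11 in the last without the 3 arrays of high controls). ERLIN1, part of a membrane complex that restrains SREBP activation, was at 0.35 ± 0.10 in week 1 against week 0 and at -0.32 ± 0.10 in week 3 against week 1. Its partner ERLIN2 went the other way, at 0.37 ± 0.15 in the last comparison. UFD1, a cofactor of the extraction ATPase VCP, was at -0.33 ± 0.12 in week 1 and -0.28 ± 0.12 in week 3, lower than week 0 in all 4 cows each time (-0.15 in week 3 without the 3 arrays). SCAP itself, which the rule for named genes did not pick, was within 0.07 of 0 in all 3 comparisons (-0.14 to -0.04 without the 3 arrays).

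For sterol uptake and trafficking, 13 of 22 genes were measured. The medians were 0.01 (-0.04 without the 3 arrays), 0.01 and 0.00, with 7, 8 and 5 genes higher. GRAMD1C, which moves cholesterol from the plasma membrane inward, was at 0.64 ± 0.29 in week 3 against week 0 and 0.82 ± 0.29 against week 1, higher in all 4 cows in both. The sterol-binding protein STARD5 was at 0.83 ± 0.46 (1.38 without the 3 arrays) and 1.01 ± 0.46, again in all 4 cows. MYLIP, a ubiquitin ligase, was at -0.29 ± 0.19 and -0.35 ± 0.19, lower in all 4 cows in both comparisons. Of all probe sets, 36.3% were higher and 4.63% lower in all 4 cows in week 3 against week 0.

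For esterification and ester hydrolysis beside SOAT1, 6 of 7 genes were measured, and the medians were 0.04, 0.03 and -0.08 (0.20 for the first and -0.13 for the last without the 3 arrays of high controls). All 6 were higher in week 1 than in week 0, 4 of them by 0.04 or less, 4 of 6 were higher in week 3 than in week 0 and 1 of 6 was higher in week 3 than in week 1. The member of this list with the smallest p, ACAT2, at 0.44 ± 0.19, -0.22 ± 0.19 and -0.66 ± 0.19 (0.27 and -0.41 for the first and second without the 3 arrays), does not make sterol esters: it is a thiolase that condenses acetyl-CoA at the start of cholesterol synthesis and belongs to that list too. SOAT2, the relative of SOAT1 known from intestine and liver, had a narrow probe set at 0.02, 0.01 and -0.01. LIPA, the lysosomal enzyme that splits cholesteryl esters, was at 0.42 ± 0.35 in week 3 against week 0, higher in all 4 cows (0.80 without the 3 arrays). Of the LXR and efflux genes 10 of 15 were measured, with medians of 0.02, 0.02 and 0.00 and no gene at an unadjusted p under 0.05.

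The targets of the SREBPs were followed as 2 lists, in which no gene was called. Of 20 genes of cholesterol synthesis 15 were measured, with medians of 0.23 in week 1 against week 0 (0.10 without the 3 arrays), -0.45 in week 3 against week 0 and -0.65 in week 3 against week 1. At an unadjusted p under 0.05, 3, 0 and 0 of the 15 were higher and 0, 6 and 11 lower. FDFT1, which makes squalene, was at 0.54 ± 0.22, -0.94 ± 0.22 and -1.48 ± 0.22 (limma, adjusted p = 0.763, 0.777 and 0.230). Of 16 genes of fatty acid synthesis 14 were measured, with medians of 0.08, -0.01 (-0.09 without the 3 arrays) and -0.11 (-0.07 without them), and the elongase ELOVL6 was at 0.67 ± 0.19, -0.31 ± 0.19 and -0.98 ± 0.19. Many of these synthesis genes were reported for this study, so the direction of these lists is not independent evidence.

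**Figure D4:**
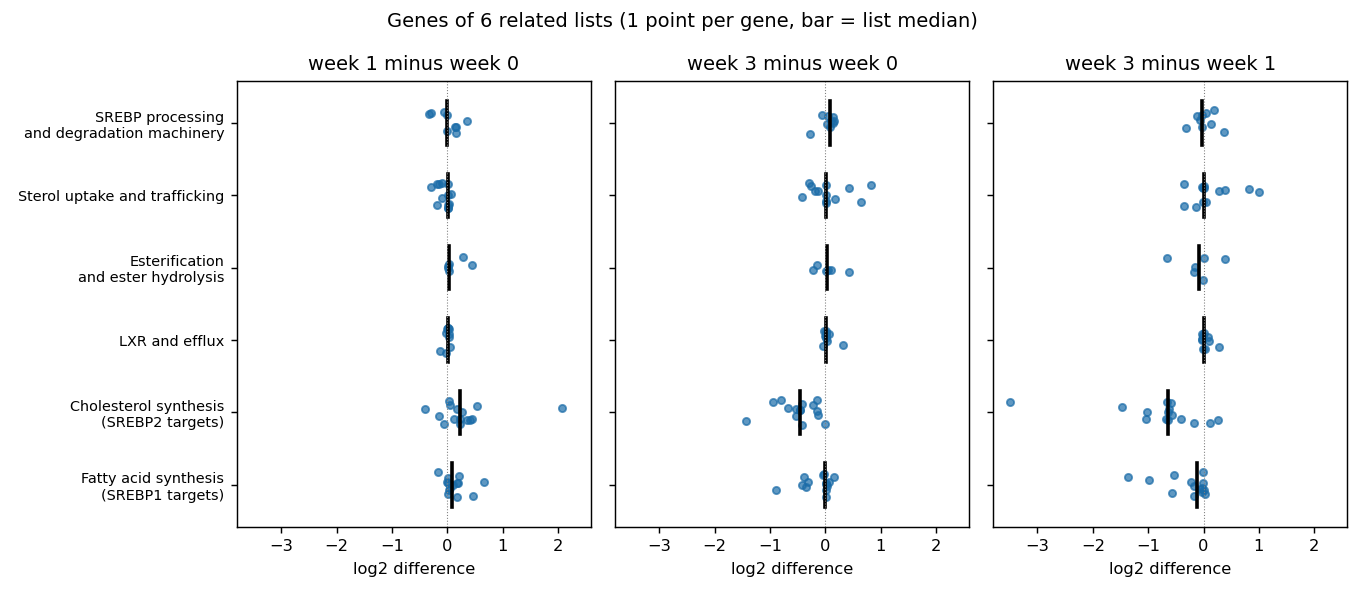
Log2 differences between weeks (x axis) of the measured genes in 6 lists (y axis), 1 point per gene with a black bar at the median of the list. The medians of the first 4 lists lie between -0.08 and 0.08, and that of cholesterol synthesis lies at 0.23, -0.45 and -0.65.

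The regulators were then set against the synthesis genes array by array, with each gene represented by its probe set of largest SD. To leave out stable differences between cows, each value was centred on the mean of its cow, and the 12 points still share cows, weeks and arrays. SREBF2 correlated positively with all 15 genes of cholesterol synthesis, from 0.28 for PMVK to 0.94 for MSMO1, with a median of 0.77. INSIG1 had a median of 0.73 with 13 of 15 positive, and SREBF1 one of 0.66 with 13 of 15 positive. SOAT1 lay on the other side, with a median of -0.59, 1 of 15 positive and its lowest value, -0.77, for FDFT1. INSIG2 had a median of -0.12, and the narrow SCARB1 probe set one of -0.09. Over all 6597 or 6598 other genes that varied enough to be compared, the medians were between -0.11 and 0.06. Without the 3 arrays of high controls, the medians were 0.79 for SREBF2, 0.77 for INSIG1, 0.62 for SREBF1, 0.10 for INSIG2, -0.76 for SOAT1 and 0.12 for SCARB1. INSIG2 was then positive with 10 of 15 genes instead of 4, and SCARB1 with 8 of 15 instead of 2. In these values the cow means were still taken over all 12 arrays, so the 3 left out still set the centre for cows 1 and 2. Uncentred and without the 3 arrays, the medians were 0.81 for SREBF2, 0.58 for INSIG1 and 0.70 for SREBF1. For INSIG2, SOAT1 and SCARB1 they were -0.14, -0.32 and -0.07.

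With values not centred on the cow, SREBF2 had a median of 0.77 with the cholesterol genes, INSIG1 had 0.55 and SREBF1 0.67, while SOAT1 was at -0.17. For the 12 genes of fatty acid synthesis, centred on the cow, the medians were 0.52 for SREBF1 and SREBF2, 0.36 for INSIG1, 0.22 for INSIG2 and -0.39 for SOAT1. Uncentred, these medians were 0.52 for SREBF1, 0.45 for SREBF2, 0.34 for INSIG1, 0.09 for INSIG2 and 0.05 for SOAT1. When centred, ELOVL6 was the closest of the fatty acid genes to SREBF1, at 0.88 (0.51 uncentred). The desaturase SCD was the closest to SREBF2, at 0.89 (0.89 uncentred). Among the members, SREBF1 and SREBF2 correlated at 0.71, INSIG1 with SREBF1 at 0.67 and with SREBF2 at 0.64, and SOAT1 with INSIG1 at -0.66 and with SREBF2 at -0.67, all centred on the cow. Uncentred, SREBF1 and SREBF2 correlated at 0.74, and INSIG1 with SREBF1 at 0.42 and with SREBF2 at 0.54. SOAT1 was then at -0.46 with INSIG1 and -0.21 with SREBF2.

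**Figure D5:**
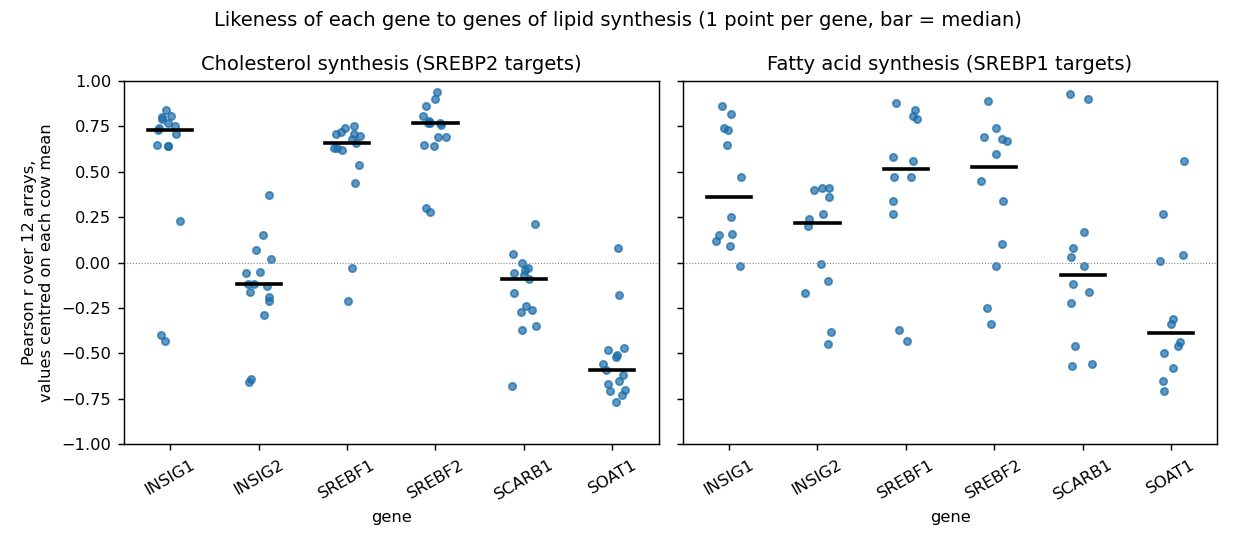
Pearson correlation over 12 arrays, values centred on the mean of each cow (y axis), of each of the 6 genes (x axis) with 15 genes of cholesterol synthesis and 12 of fatty acid synthesis, 1 point per gene with a bar at the median. The cholesterol genes lie mostly above 0 for INSIG1, SREBF1 and SREBF2 (medians 0.73, 0.66 and 0.77) and mostly below 0 for SOAT1 (median -0.59).

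Of 6598 genes compared over the 12 arrays, uncentred, those most like SREBF2 were MSMO1, a sterol demethylating oxidase, at 0.94, SCD at 0.89 and FGFBP1 at 0.88. For INSIG1 the most alike were PDLIM4 at 0.93, TTLL3 at 0.86 and the nucleoside transporter SLC29A1 at 0.86, and for SREBF1 they were KRR1 at 0.92, SPATA20 at 0.88 and AZIN1 at 0.87. The nearest to INSIG2 were ANKMY2 at 0.91, SDHAF4 at 0.90 and IFT25 at 0.88, and to SOAT1 they were MPZL3 and SPTLC1 at 0.95 and PRPF4B at 0.94. SPTLC1 is a subunit of the first enzyme of sphingolipid synthesis. For SCARB1 the 3 nearest, ZNF432, OXLD1 and PPARA, all at 0.96, had an SD of 0.0984 to 0.140, against 0.0236 for SCARB1, and correlated with the array median at 0.95 to 0.98, like SCARB1 itself.

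Centred on the cow, PDLIM4 at 0.97 was again nearest to INSIG1, before USP15 at 0.95 and ENOSF1 at 0.92, and KRR1 was again nearest to SREBF1, with SAFB2 and RBM25 at the same 0.94. The other nearest genes differed from those above. They were ABHD3 at 0.97, CAMLG and HMGN4 at 0.95 for INSIG2, SRRM2 and AGFG1 at 0.97 and CHGA at 0.95 for SREBF2, ODF2 at 0.97, NT5C2 at 0.96 and ERBB3 at 0.95 for SOAT1, and KLHL12 at 0.98, KIF27 and ARHGAP24 at 0.97 for SCARB1. With 12 points and 6598 genes, high correlations occur in any search of this kind.

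Markers of the cells that papillae can hold were compared between weeks as well, and none was called. Of 11 markers of macrophages and dendritic cells, cells in which SOAT1 is known to be active, 7 were measured, and 6 of the 7, the narrow CD83 included, were higher in week 3 than in week 0, with a median of 0.13 (0.38 without the 3 arrays). Their mean ranged from -0.53 to 0.38 at week 0, from -0.35 to 0.04 at week 1 and from -0.16 to 0.51 at week 3, and CD14 was at 1.10 ± 0.46 in week 3 against week 0. The correlation of that mean with SOAT1 over the 12 arrays was 0.16, and with INSIG1 it was -0.50. All 7 fibroblast markers were higher in week 3 than in week 1, with a median of 0.34, and their mean ranged from -0.42 to 0.12, from -0.41 to 0.21 and from 0.07 to 0.38 in weeks 0, 1 and 3. In week 3 against week 0, 6 of the 7 were higher, with a median of 0.20 (0.59 without the 3 arrays). Week 1 against week 0 split them, with 3 higher, 4 lower and a median of -0.12. The 3 were COL1A1, COL1A2 and COL3A1, at 0.67 ± 0.19, 0.72 ± 0.20 and 0.54 ± 0.13. DCN was the lowest, at -0.65 ± 0.28 (-0.31 without the 3 arrays). The mean of the 7 correlated at -0.75 with SREBF2.

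The 5 measured markers of basal epithelium, of 6, were all lower than week 0 in both grain weeks, with medians of -0.32 and -0.36, and their mean ranged from 0.23 to 0.41, from -0.27 to 0.19 and from -0.39 to 0.01. For differentiating epithelium, 5 of 9 markers were measured, with medians of -0.62 and -0.59 and a mean that ranged from 0.08 to 0.71, from -0.49 to 0.29 and from -0.47 to -0.17. These 5 did not share a sign, with 2 higher than week 0 in week 1 and 1 higher in week 3. The keratins KRT4 and KRT10 were at 0.01 and 0.18 in week 1 and at 0.04 and -0.01 in week 3. Without the 3 arrays KRT10 was at 0.37 and 0.14. The other markers of the 5 were lower in both weeks. DMKN was at -1.79 ± 0.24 in week 1 (limma, adjusted p = 0.194) and -0.63 ± 0.24 in week 3. DSG1 was at -0.65 ± 0.72 (-1.58 without the 3 arrays) and -2.37 ± 0.72, and DSC1 at -0.62 ± 0.37 and -0.59 ± 0.37 (-0.96 without them). INSIG2 correlated at -0.74 with the basal mean and at -0.69 with the differentiating mean. The medians for lymphocytes (8 of 9 markers measured), vessels and smooth muscle (8 of 8) and adipocytes (4 of 5) lay between -0.02 and 0.04 in all 3 comparisons (-0.05 to 0.07 without the 3 arrays), with 3 lymphocyte probe sets and 1 of vessels among the narrow ones. Single markers lay far from these medians. The T cell genes CD3G and CD3D were at 1.63 ± 0.49 and 1.12 ± 0.48 in week 1 against week 0, higher in all 4 cows (limma, unadjusted p = 0.00732 and 0.0406, adjusted p = 0.763 for both), and CD3D was at 1.83 without the 3 arrays. CD3E and CD2, also T cell genes, went the other way in week 1 against week 0, at -0.46 ± 0.52 and -0.12 ± 0.08. CD3E was lower in 3 cows and CD2 in all 4 (-0.09 and -0.03 without the 3 arrays). In week 3 against week 1, CD3G was at -1.37 ± 0.49, lower in all 4 cows, and CD3E at 0.79 ± 0.52, higher in all 4. FABP4, a fatty acid carrier of adipocytes, was at 1.79 ± 0.81 in week 1 against week 0, higher in all 4 cows (limma, unadjusted p = 0.0501, adjusted p = 0.763). The other measured adipocyte markers, ADIPOQ, LEP and CIDEC, were at 0.02 to 0.03 in that comparison. Which of these markers were at background could not be seen in values without a level, and the part of cell composition in the results for INSIG1, INSIG2, SREBF2 and SOAT1 was not tested.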

How the data were processed

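Biotin-labelled cRNA from 10 µg of total RNA per sample was hybridised to Affymetrix bovine arrays, per the labels' protocols. The authors made the deposited log2 values with GCRMA (version not given in the sources used here), a background correction and normalization of probe intensities, per the submitters' processing notes. Every probe set had a median of 0 over the 12 arrays. No source states the log base. It was taken as 2, since with natural logs the largest spread of a single probe set (11.2) would correspond to a 74399-fold range, more than the 65535 steps that a 16-bit scan can hold.

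All 24016 probe sets other than 112 controls (AFFX) were tested with limma 3.58.1 in R 4.3.3 (lmFit and eBayes, two-sided), with a mean per week over all 12 arrays and no term for the cow. P-values were adjusted by Benjamini-Hochberg over all probe sets. In the platform annotation 13292 probe sets named 1 gene, 86 several and 10638 none, and 13263 gene IDs were found in the RefSeq gene table of ARS-UCD2.0, used for symbols alone. Replicates are separate cows, and the number of arrays limits the precision. The same cows were sampled each week. Their deviations from the weekly means correlated at 0.303 to 0.690 for arrays of 1 animal and at -0.435 to 0.0662 otherwise. The correlation within a cow that limma estimated over all probe sets, with the cow as a random block, was 0.0256. A fit with the cow as a block accompanied each test.

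Both fits were first tested on simulated data with known changes. All probe sets of the 6 genes are named, and of other genes the 3 most alike per member (without the 40% of probe sets of lowest SD) and up to 3 of smallest p per list and comparison. SCAP, SOAT2, the extremes of correlation and the marker genes were named outside that rule after their values were seen. The members and the lists were chosen with earlier results of these data known. Alternatives were the block, normalization, array weights, robust eBayes, a filter on SD, a summary per gene and leaving out arrays. No sequences or coordinates are given.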

Additional observations from a re-analysis of the deposited data

Results flagged for a closer look

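INSIG1 differed from week 0 in opposite directions in the grain weeks in all 4 cows, by 0.27 in week 1 and -0.34 in week 3. Both comparisons share the week 0 arrays. The direct test of the difference, week 3 against week 1, gave -0.61 ± 0.13 (limma, adjusted p = 0.548).

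In 36 groups of 4 arrays, 5 held a value far from the rest of the group by Dixon's test, which picks about 1 group in 20 by chance. In week 1, INSIG1 was at 0.02 in cow 3 against 0.35 to 0.36 in the other cows, and SREBF1 C was at 0.50 in cow 3 against -0.02 to 0.04. INSIG2 C was at -0.19 in cow 4 in week 1 against 0.00 to 0.02. INSIG2 A was at -0.07 in cow 4 in week 3 against 0.05 to 0.07. INSIG2 B was at -0.30 in cow 2 in week 0 against -0.05 to -0.01.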

How the results depend on the processing

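With 9 varying probe sets and 3 comparisons there were 27 differences, of which 21 kept their direction in every alternative run and none was called in any. INSIG1 in week 3 against week 1 stayed between -0.71 and -0.51, with adjusted p-values from 0.0773 (array weights) to 1.0. With the cow as a replicate block, 2 of the 12 probe sets instead of 1 had an unadjusted p under 0.05 in week 1 against week 0, and the block changed no other count by over 1.5 times and no call of these 12. Calls came from array weights alone, which gave the week 1 array of cow 1 a weight of 0.0618 and the others 0.421 to 3.63. They were 1 for week 1 against week 0, the narrow SREBF1 D (0.05 ± 0.01, limma adjusted p = 0.0285), and 2 in the F test, INSIG1 and SREBF2 A (adjusted p = 0.0441 each), but with array weights 41.5% and 25.4% of all probe sets were called in these tests. Counts at an unadjusted p under 0.05 were 3 and 5 with array weights in weeks 1 and 3 against week 0, against 50.1% and 15% of all. Without the 3 arrays of high hybridization controls they were 0, 0 and 2 for the 3 comparisons (17.7%, 5.04% and 12.4% of all), and with the block added 1 in week 3 against week 0 and 2 in week 3 against week 1 (5.39% and 11.8%). Centring each array on its median gave 2 in week 3 against week 1 (4.27%). Leaving out 1 array or cow gave 0 to 3, 0 to 4 and 1 to 5. For week 3 against week 1 the count was 1 without the week 1 array of cow 3, the week 3 array of cow 2, cow 1 or cow 3, and 2 without the week 1 or week 3 array of cow 1 or the week 3 array of cow 3.

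Some differences near 0 changed sign. SREBF2 A in week 1 against week 0 was 0.10 without the 3 arrays and with the block, 0.01 as a median over its probe sets and -0.08 to 0.11 with 1 array or cow left out. SOAT1 in that comparison was -0.00379 with quantile normalization, -0.19 with array weights, -0.69 without the 3 arrays, -0.47 with the block added and -0.26 to 0.25 with 1 array or cow left out. Without the 3 arrays and with the block, INSIG2 B was -0.06 and SREBF1 C 0.04 in week 3 against week 0. With array weights, INSIG2 A and B were both 0.02 in week 3 against week 1. The causes of these changes were not tested. For lists and correlations, leaving out the 3 arrays was chosen after seeing the data. Signal over background limits all probe sets and cannot be read from centred values.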

Other observations

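Over the 12 arrays INSIG1 had the largest share of variance between weeks of the 12 probe sets, 66.9%, with 22.2% between cows. For SREBF2 A the shares were 43.7% and 15.8%, and for INSIG2 A 48.8% and 12.4%.

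Among the uptake and trafficking genes, centred on the cow, GRAMD1C had the highest correlation with SOAT1, at 0.95 over 12 arrays, and MYLIP the lowest, at -0.93. With INSIG1, MYLIP was the highest, at 0.81, and STARD5 the lowest, at -0.88. These are the extremes of 10 genes on arrays that share cows and weeks. LIPA, also centred on the cow, correlated at 0.84 with SOAT1, the highest of 5 esterification and hydrolysis genes. With uncentred values, 0 of these 5 genes correlated positively with SOAT1, so the sign for LIPA depended on the centring.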
